A study of Homo sapiens with 16 samples.

Results

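The histone genes described here are the 70 genes on the array whose symbol starts with HIST1H, HIST2H, HIST3H or HIST4H, out of 32080 gene symbols. They are covered by 84 of the 50599 non-control probes. Of the 70 genes, 59 have 1 probe and 11 have several. Where a gene has several, the probe whose mean over all 16 arrays is highest stands for it, a choice that uses no treatment contrast. In 64 genes that probe was well above background on each array of 1 or more of the 8 groups, and 59 were above background on all 16 arrays. Of the 64, 1 gene (HIST1H4G) passed through exactly 1 group and 4 passed through 2 to 7 groups. The other 6 genes (HIST1H1B, HIST1H1T, HIST1H2APS1, HIST1H2BA, HIST2H2BA and HIST2H4A) were above background on no array. By type, the filter kept 4 of 6 H1, 16 of 17 H2A, 17 of 19 H2B, 13 of 13 H3 and 14 of 15 H4 genes.

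Gene expression was measured in RPMI-8226 and MM.1S, both established lines from multiple myeloma, a cancer of plasma cells. Each line was grown for 6 days in DMSO (the control), in 1 µM GSK126 (an inhibitor of the H3K27 methyltransferase EZH2), in 1 µM UNC0638 (an inhibitor of the H3K9 methyltransferase G9a), or in both inhibitors at 1 µM each, which is called the combination below. There are 2 biological replicates for each of the 8 groups, each with total RNA labelled with Cy3 and read on 1 array. All values are log2 levels: the log2 signal of a probe minus the 75th percentile of its array, which was an intensity of 254 to 476. A gene is called when limma's p-value, adjusted over all probes tested with the Benjamini-Hochberg method, is under 0.05. In bulk samples, fewer cells making a transcript and less of that transcript per cell cannot be told apart. Each line was on a slide of its own, so line and slide cannot be told apart.

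Histones package DNA into nucleosomes, whose core holds H2A, H2B, H3 and H4, while H1 binds the linker DNA between them. Most replication-dependent histone genes lie in clusters, are transcribed mainly while DNA is being copied, and make messenger RNAs that end in a stem-loop in place of a poly(A) tail. Some members can also make longer, polyadenylated transcripts, which are known from cells that leave the cell cycle or differentiate. Low-input labelling commonly primes from poly(A) tails, and how messages without one were labelled is not stated, so the share of polyadenylated forms in each histone signal is unknown. Replication-independent variants such as H3.3 and H2A.Z are encoded elsewhere and have ordinary polyadenylated messages.

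The labels name plasma cell tumour lines, and their marker genes were read first. All 8 of 8 plasma cell markers (SDC1, TNFRSF17, CD38, XBP1, IRF4, PRDM1, MZB1 and POU2AF1) were above background on all 8 arrays of each line. Among T cell markers, 3 of 4 in RPMI-8226 and 2 of 4 in MM.1S were above background on all 8 arrays of the line. Among myeloid markers, 3 of 4 had a probe (LYZ had none), of which 2 in RPMI-8226 and 1 in MM.1S were above background on all 8 arrays, and MPO was on none. With the combination the marker lists moved beside the histone genes. In MM.1S, limma called 8 of 8 plasma cell markers lower (median log2 change −0.58), 2 of 3 tested T cell markers higher (median 1.99) and 0 of 1 tested myeloid marker, with 0 at an unadjusted p under 0.05. In RPMI-8226, it called 3 of 8 plasma cell markers lower (median −0.80), 4 of 4 T cell markers higher (median 4.82) and 1 of 2 tested myeloid markers higher. With UNC0638 alone it called 4 of 8 plasma cell markers lower (median −0.34) and 2 of 3 T cell markers higher (median 2.20) in MM.1S, and 3 of 4 T cell markers higher (median 2.75) in RPMI-8226. With GSK126 alone it called 2 of 8 plasma cell markers lower (median −0.44) in MM.1S, and 1 of 4 T cell and 1 of 2 myeloid markers higher in RPMI-8226. Of all genes in MM.1S, 32.0% were lower and 23.2% higher with the combination, 16.7% and 13.8% with UNC0638, and 2.37% and 5.74% with GSK126. In RPMI-8226 the shares were 5.03% and 8.06%, 0.0749% and 0.649%, and 0.0562% and 0.656%.

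The level summed over a marker list is given per array. For plasma cell markers in MM.1S it was 9.09 and 9.12 on the DMSO arrays and 8.57 and 8.55 with the combination. It was 8.54 and 8.74 with GSK126, about as low, and 8.95 and 8.80 with UNC0638. In RPMI-8226 it was 8.14 and 8.42 in DMSO, then 7.49 and 7.89 with the combination. The plasma cell marker with the highest signal was XBP1 in MM.1S (7.33 and 7.30 in DMSO) and MZB1 in RPMI-8226 (6.73 and 7.16). The T cell sum was −1.28 and −1.03 in RPMI-8226 DMSO and 3.82 and 3.63 with the combination, and −1.91 and −2.11, then −0.42 and −0.28, in MM.1S. In MM.1S it was −0.38 and −0.18 with UNC0638 and −1.74 and −2.08 with GSK126. The myeloid sum was −0.89 and −0.07, then 1.86 and 2.29, in RPMI-8226, and −2.73 and −2.71, then −2.84 and −2.66, in MM.1S. The part of these markers in the histone gene results was not tested.

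Several probes carry the stem-loop itself. The search was for a pattern, a stem of 6 bases on each side of a 4-base loop. The stem had to start with GG and the loop with TT, and the other letters could vary. The pattern was in 6 of the 84 histone probes (7.14%) and in 11 of all 50599 probes (0.0217%). In HIST1H2AI, HIST1H2BE and HIST2H3A its letters were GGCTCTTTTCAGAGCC. The polyadenylation hexamer AATAAA was in 5 of the 84 histone probes (5.95%) and in 7.88% of all probes. The parts of 3 such probes around the stem-loop, from an H2A, an H2B and an H3 gene, are shown because this element marks the end of a replication-dependent histone message (capitals, stem and loop). Positions are on GRCh37, plus strand: chr6:27776416-27776445 for HIST1H2AI, chr6:26184429-26184458 for HIST1H2BE and chr1:149824656-149824685 for HIST2H3A.
HIST1H2AI: ggaaccaaaGGCTCTTTTCAGAGCCaccta
HIST1H2BE: aaacccaaaGGCTCTTTTCAGAGCCactca
HIST2H3A: cgtatccaaaaGGCTCTTTTCAGAGCCacc

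Some histone genes of a type are so alike that a probe may bind messages of several members. Of 505 gene pairs of the same type, 21 pairs had chosen probes that share a run of at least 20 bases, which involves 23 genes. In 38 pairs, which involve 33 genes, the probes were at least 80% identical over the stretch where they overlap. That stretch was taken from the best ungapped alignment with a shift of up to 20 bases, whether or not it held the shared run. The longest shared run among chosen probes was 32 bases, between HIST1H2BD (chr6:26158474-26158533, plus strand) and HIST1H2BK (chr6:27114437-27114496, minus strand). HIST1H3F (chr6:26250588-26250647, minus strand) and HIST1H3H (chr6:27778041-27778100, plus strand) share 30 bases. Values of such genes are uncertain as values of 1 gene, and each is given below as the reading of its probe. These 4 probes are printed in full because they are the pairs with the longest shared run, in capitals, in H2B and in H3.
HIST1H2BD: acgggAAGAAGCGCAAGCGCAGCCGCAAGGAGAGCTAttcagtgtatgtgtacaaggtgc
HIST1H2BK: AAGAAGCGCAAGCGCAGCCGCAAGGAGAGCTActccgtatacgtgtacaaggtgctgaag
HIST1H3F: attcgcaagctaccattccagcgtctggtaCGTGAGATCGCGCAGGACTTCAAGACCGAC
HIST1H3H: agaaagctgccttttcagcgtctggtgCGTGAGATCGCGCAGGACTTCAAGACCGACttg

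Promoters were read from RefSeq (GRCh38.p14), which holds 300 bases, from 250 before to 50 after the start, for 63 of the 70 genes. Motifs were searched on both strands. CCAAT was in 53 of the 63 histone promoters (84.1%) and in 34.6% of all 35116 promoters of the same length. TATAAA was in 41 (65.1%, against 11.5% of all promoters), and the octamer ATTTGCAT in 26 (41.3%, against 1.77%). The octamer lay in 11 of 15 H2A and 14 of 18 H2B promoters, in 1 of 11 H3 promoters, and in 0 of 6 H1 and 0 of 13 H4 promoters. CCAAT lay in all 6 H1, all 15 H2A, all 18 H2B and all 11 H3 promoters, and in 3 of 13 H4 promoters. The promoters of 2 genes are printed because HIST1H4H was called lower with the combination in both lines and HIST1H2BK responded unlike between the lines. HIST1H2BK (chr6:27146809-27147108, minus strand) holds all 3 motifs, in capitals, and HIST1H4H (chr6:26285485-26285784, minus strand) holds none of these letters. A match is a description of the letters and shows no bound factor, and the absence of these letters says nothing about a factor.
HIST1H2BK: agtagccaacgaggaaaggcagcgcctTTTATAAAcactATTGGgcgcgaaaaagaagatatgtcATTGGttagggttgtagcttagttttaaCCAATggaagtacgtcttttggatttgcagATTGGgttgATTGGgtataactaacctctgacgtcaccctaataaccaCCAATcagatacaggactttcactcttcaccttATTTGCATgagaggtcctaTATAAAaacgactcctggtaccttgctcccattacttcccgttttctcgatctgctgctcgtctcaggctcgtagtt
HIST1H4H: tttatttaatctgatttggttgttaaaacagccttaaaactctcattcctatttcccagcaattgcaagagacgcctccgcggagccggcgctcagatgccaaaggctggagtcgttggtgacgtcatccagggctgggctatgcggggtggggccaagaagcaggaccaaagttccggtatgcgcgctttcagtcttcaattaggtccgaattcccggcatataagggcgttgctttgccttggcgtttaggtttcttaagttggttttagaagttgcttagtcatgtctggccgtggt

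**Figure D1:**
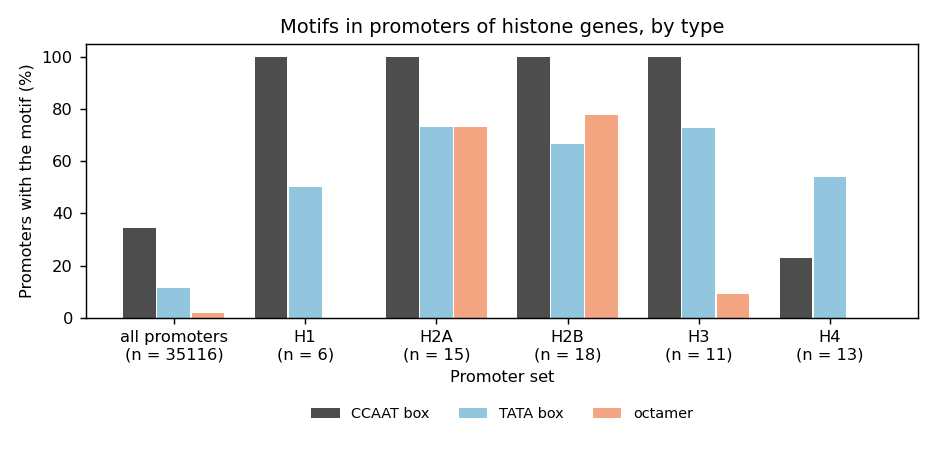
Share of promoters (percent) that hold each of the 3 motifs on either strand, for each histone type and for all promoters. The octamer is in 14 of 18 H2B promoters and in 0 of 13 H4 promoters.

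The lines differed before any treatment. In DMSO, 13 of 64 histone genes tested were higher in RPMI-8226 than in MM.1S (29.7% of all genes tested were higher) and 8 were lower (29.4% of all genes). Of the 13, 9 encode H2B, 2 H2A, 1 H1 and 1 H4. Of the 8, 5 encode H2A, and H1, H2B and H3 have 1 each. Both counts are below the share of all genes, and a difference of the set from other genes was not tested. The genes kept in MM.1S and not in RPMI-8226, named in the next paragraph, are among the 64. They passed the filter through MM.1S groups alone, which favours a lower call, so the count of 8 is read with that limit. The count of 21 was 13 without either MM.1S DMSO array, 14 without the second RPMI-8226 DMSO array and 12 in a fit of the 4 DMSO arrays alone. The genes named next were chosen after their values were seen. HIST3H2BB read −0.25 and −0.34 in RPMI-8226 DMSO and −2.35 and −2.48 in MM.1S DMSO (log2 difference 2.12, SE 0.21, adjusted p = 9.52e-06). HIST1H2AL read −2.76 and −2.25 in RPMI-8226 and 0.55 and 0.77 in MM.1S (−3.17, SE 0.33, adjusted p = 1.48e-05).

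In all, 4 genes were kept in MM.1S and not in RPMI-8226: HIST1H1A, HIST1H2AA, HIST1H2BE and HIST1H4G. Each was above background on both MM.1S DMSO arrays, and in RPMI-8226 DMSO on 1 array or none. HIST1H2BE, whose probe holds the stem-loop shown above, was above background on 8 of 8 MM.1S arrays and on 1 of 8 RPMI-8226 arrays, reading −0.01 and 0.03 in MM.1S DMSO and −5.72 and −3.6 in RPMI-8226 DMSO. HIST1H1A, an H1 linker histone, was above background on both DMSO arrays in MM.1S (−3.88 and −3.65) and on 0 of 8 arrays in RPMI-8226. Its signal was at least 1.52-fold higher in MM.1S DMSO, the fold against the RPMI-8226 background. In the other direction, no histone gene was kept in RPMI-8226 alone.

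**Figure D2:**
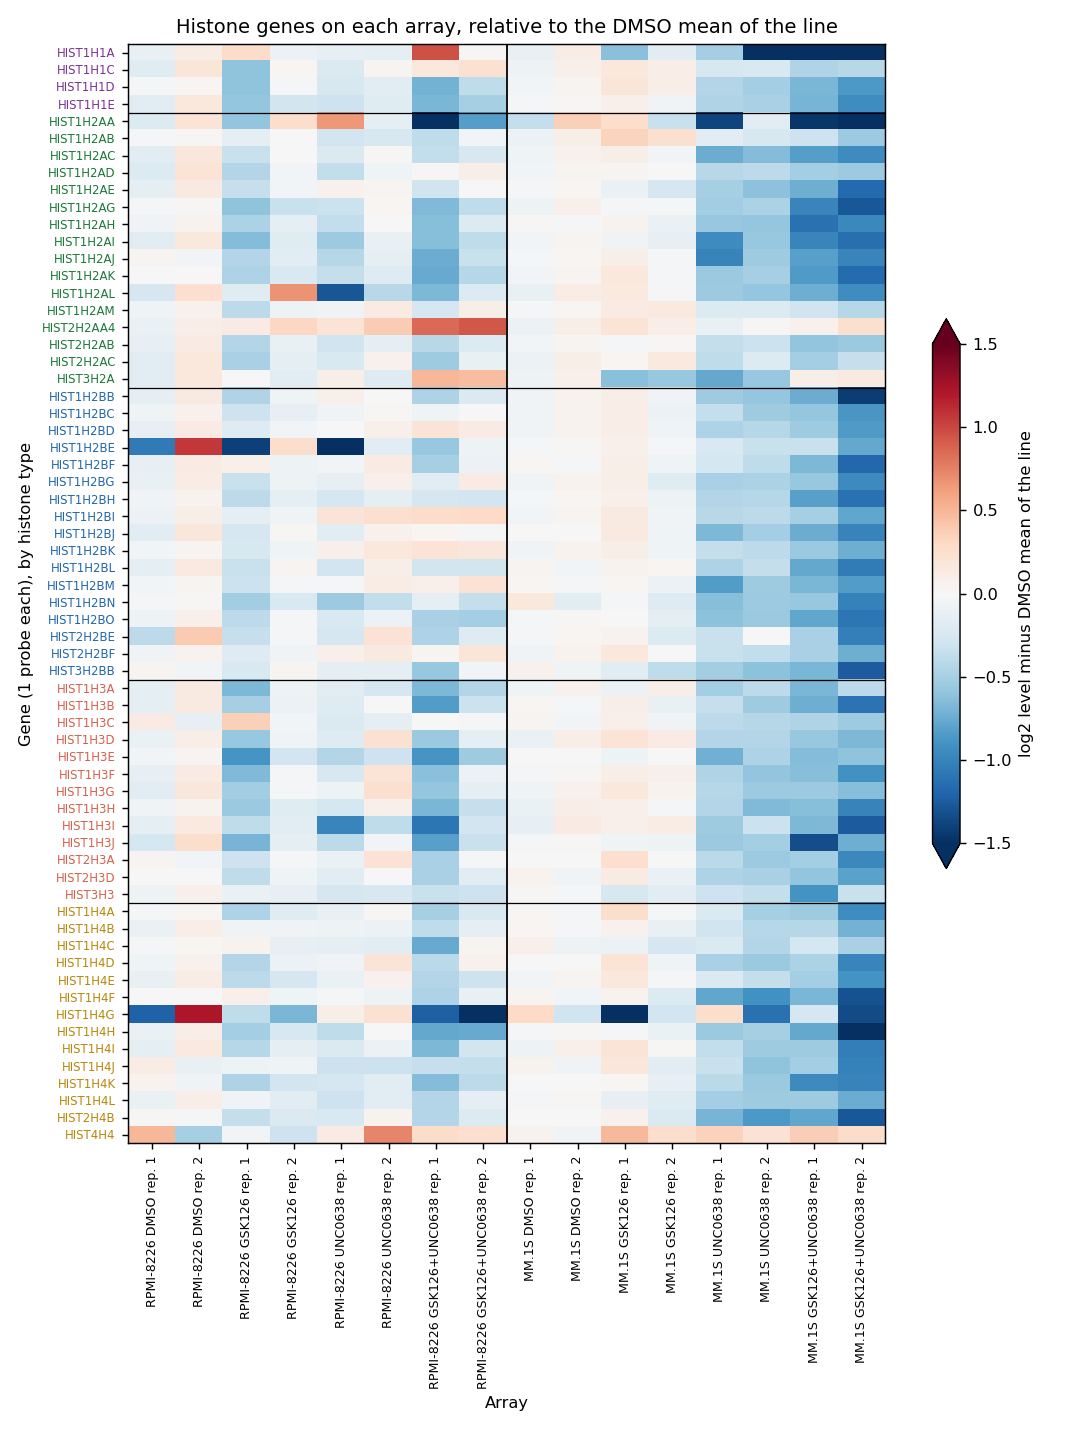
Log2 level of each histone gene on each of the 16 arrays, as the difference from the mean of the DMSO arrays of its line, with genes grouped by histone type. The MM.1S arrays with the combination are the lowest block across all 5 types.

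The strongest change was in MM.1S with the combination, where the histone genes fell nearly as a whole. Of 64 genes tested, 59 were called lower, against 32.0% of all genes tested, and 1 was called higher, against 23.2% of all genes. The 59 lower genes include 4 of 4 H1, 14 of 16 H2A, 17 of 17 H2B, 13 of 13 H3 and 11 of 14 H4 genes. Median log2 changes were −0.79 for H1, −0.86 for H2A, −0.76 for H2B, −0.70 for H3 and −0.75 for H4, against −0.11 over all genes. The falls were modest in size: the median fold among lower calls was 1.71, and 10 of the 59 were past 2-fold. In 60 of the 64 genes both treated arrays lay below both DMSO arrays, and in 2 both lay above. The 4 genes without a lower call that were not called higher are HIST1H4C, HIST1H4G, HIST2H2AA4 and HIST3H2A.

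A median that uses no filter gives the same direction. Over the 35 histone genes with the higher mean level on the 8 MM.1S arrays, the median log2 change was −0.73, from −1.35 to −0.36, with 35 of 35 below 0, and over the 16040 genes chosen in the same way it was −0.13. Over all 70 histone genes it was −0.75. The median of the 35 was −0.63 and −0.89 on the arrays with the combination, relative to the DMSO mean, where the DMSO arrays themselves were at −0.02 and 0.02. The scaling sets the size. With the percentile taken over probes detected on all arrays, the median of the 35 was −0.55, and with quantile normalization −0.40. The same percentile moves the median of all genes from −0.11 to 0.08 in MM.1S and from −0.12 to 0.02 in RPMI-8226, and histone changes are read relative to that shift. It also moves the share of higher among all probes called from 41.3% to 58.1%. The count of 60 was 36, all lower, with quantile normalization, and 43 to 60 when 1 array was left out.

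**Figure D3:**
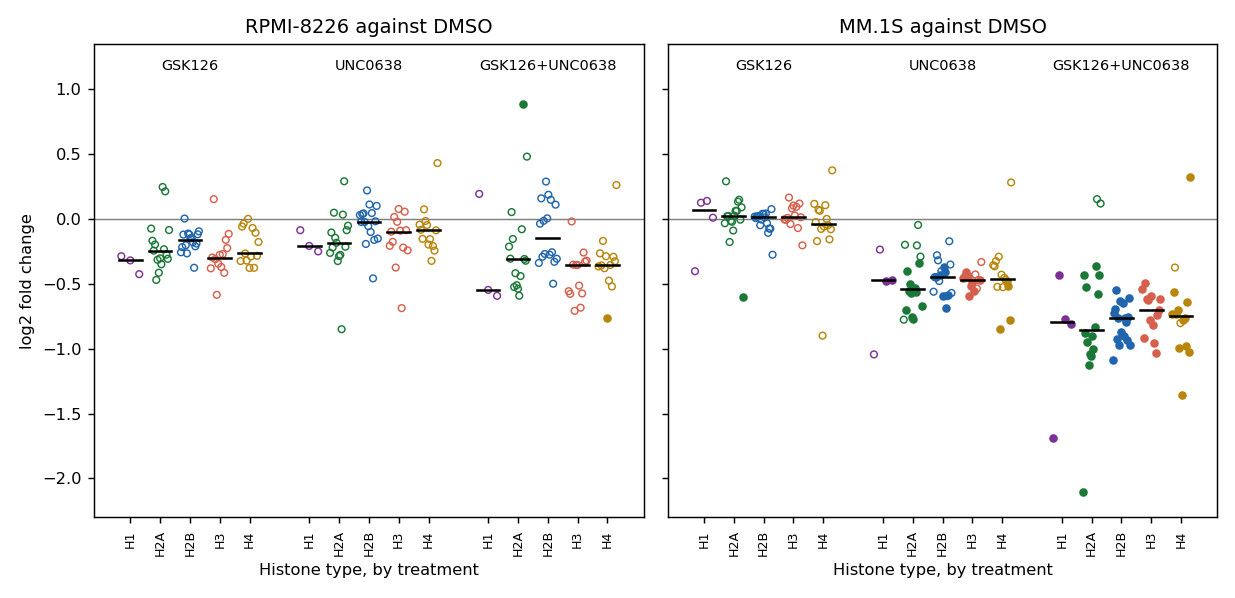
Log2 change against DMSO of each tested histone gene (vertical axis) by histone type, for GSK126, UNC0638 and the combination in each line, with the median of each type marked. In MM.1S the points with the combination lie below 0 for 61 of 64 genes, and with GSK126 they centre on 0.

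Among the H1 linker histones, which bind DNA between nucleosomes, HIST1H1E read 3.93 and 3.97 in MM.1S DMSO, 4.03 and 3.90 with GSK126, 3.5 and 3.46 with UNC0638, and 3.26 and 3.02 with the combination. The combination arrays are the lowest of the 8, and the GSK126 arrays overlap DMSO (log2 change with the combination −0.81, SE 0.11, adjusted p = 0.00154). HIST1H1C, the H1 probe with the highest mean, read 4.95 and 5.10 in DMSO and 4.58 and 4.62 with the combination (−0.43, SE 0.08, adjusted p = 0.00654). Its call was lost in 1 fit of all 16 arrays, with the detected-probe percentile and with quantile normalization (−0.08, adjusted p = 0.452), the upper end of a range of 0.00141 to 0.452 over 17 alternatives. HIST1H1A read −3.88 and −3.65 in DMSO and was not above background with the combination, a fall of at least 2.11-fold (adjusted p = 0.00974). Its call was lost without the second DMSO array and without the first array with the combination.

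H2A and H2B pair in the nucleosome, and their genes lie side by side in HIST1. In MM.1S the H2A genes with the largest measured falls were HIST1H2AG and HIST1H2AI. HIST1H2AG read 2.98 and 3.13 in DMSO, 3.04 and 3.04 with GSK126, 2.54 and 2.57 with UNC0638, and 2.07 and 1.79 with the combination (−1.13, SE 0.12, adjusted p = 7.22e-04). HIST1H2AI, whose probe holds the stem-loop printed above, read 2.72 and 2.81, then 2.71 and 2.64, 1.82 and 2.20, and 1.78 and 1.64 (−1.06, SE 0.14, adjusted p = 0.00154). Both calls held in all 17 alternatives. Of the H2A probes with the highest mean, HIST1H2AJ read 5.56 and 5.62 in DMSO and 4.77 and 4.6 with the combination (−0.90, SE 0.16, adjusted p = 0.00523), and HIST1H2AM read 4.94 and 5.01, then 4.68 and 4.54 (−0.36, SE 0.08, adjusted p = 0.0119). Quantile normalization ended both calls, and that of HIST1H2AM was lost in 5 further alternatives: in the fit of all 16 arrays, with the compared groups alone, with the detected-probe percentile, and without the second DMSO array or the second array with the combination.

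All 17 H2B genes tested fell in MM.1S with the combination, with log2 changes from −1.08 to −0.55. HIST1H2BB read 2.67 and 2.77 in DMSO and 1.98 and 1.29 with the combination (−1.08, SE 0.22, adjusted p = 0.00723). HIST1H2BL, the H2B probe with the highest mean, read 4.44 and 4.35 in DMSO, 4.45 and 4.43 with GSK126, 3.93 and 4.04 with UNC0638, and 3.63 and 3.35 with the combination (−0.91, SE 0.11, adjusted p = 0.00130). UNC0638 arrays lie between DMSO and the combination for this gene, and GSK126 arrays overlap DMSO. HIST2H2BF read 3.6 and 3.70, then 3.17 and 2.92 with the combination (−0.61, SE 0.11, adjusted p = 0.00584). The calls of HIST1H2BB and HIST1H2BL held in all 17 alternatives and that of HIST2H2BF in 16, quantile normalization being the exception.

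The 13 H3 genes, which encode the histone carrying the residues that EZH2 and G9a methylate, were all called lower in MM.1S with the combination, from −1.03 to −0.49. HIST1H3D read 6.48 and 6.69 in DMSO, 6.79 and 6.71 with GSK126, 6.15 and 6.14 with UNC0638, and 6.02 and 5.91 with the combination (−0.62, SE 0.10, adjusted p = 0.00320), and lost its call with quantile normalization. Of H4, HIST1H4L read 6.92 and 6.95, 6.81 and 6.75, 6.43 and 6.40, and 6.40 and 6.19 (−0.64, SE 0.09, adjusted p = 0.00241) and lost its call with quantile normalization as well. HIST1H4C, the H4 probe with the highest mean, read 8.01 and 7.86 in DMSO and 7.67 and 7.45 with the combination and was not called (−0.37, SE 0.13, adjusted p = 0.0516). Its adjusted p ran from 0.00767 to 0.736 over 17 alternatives, its sign turned with quantile normalization (0.05), and 5 alternatives brought a call: the filter on all arrays, the mean over probes, normexp, the replicate block, and leaving out the first array with the combination.

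The gene called higher in MM.1S was HIST4H4, the sole gene of the HIST4 locus on chromosome 12. It read −3.01 and −3.11 in DMSO, −2.58 and −2.79 with GSK126, −2.71 and −2.84 with UNC0638, and −2.69 and −2.78 with the combination (0.32, SE 0.11, adjusted p = 0.0447). All 6 treated arrays are above both DMSO arrays. The call was weak: 11 of 17 alternatives lost it, leaving out either DMSO, either UNC0638 or either combination array among them, and the adjusted p ran from 0.0113 to 0.406.

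The fall spanned the clusters. In MM.1S with the combination, 50 of 52 HIST1 genes on chromosome 6, 7 of 8 HIST2 genes and 2 of 3 HIST3 genes, both on chromosome 1, were called lower, with medians of −0.79, −0.65 and −0.62. HIST1 itself is in 2 blocks on GRCh37, 35 genes from chr6:25726563-26285556 and 21 genes from chr6:27100318-27861647, with a gap between them. On the near side of the gap 30 of 32 tested genes were lower (median −0.73), and on the far side 20 of 20 (median −0.89). A difference between blocks was not tested.

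UNC0638 alone lowered part of the same set in MM.1S. It was called lower at 32 of 64 genes, against 16.7% of all genes, and higher at 0, against 13.8% of all genes, with 51 at an unadjusted p under 0.05. The lower genes are 2 of 4 H1, 11 of 16 H2A, 7 of 17 H2B, 8 of 13 H3 and 4 of 14 H4, with medians of −0.47, −0.54, −0.45, −0.47 and −0.46, against −0.06 over all genes. In HIST1, 14 of 32 were lower before the gap and 14 of 20 after it. Over the 35 genes with the higher mean level, the median was −0.47, at −0.44 and −0.49 on the UNC0638 arrays, against −0.07 over 16040 genes. It was −0.37 and −0.24 with the detected-probe percentile and quantile normalization. The number of calls rests on having both arrays of a group: it was 7 without the first DMSO array, 3 without the second, 8 without the first UNC0638 array, 7 without the second, 25 without either GSK126 array and 46 without either array with the combination. It was 18 in a fit of all 16 arrays, 10 with quantile normalization and 7 with no filter, and the share of higher among all probes called moved from 43.3% to 60.2% with the detected-probe percentile.

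GSK126 alone left no such pattern in MM.1S. It was called lower at 1 of 64 genes, against 2.37% of all genes, and higher at 0, against 5.74%, with 3 at an unadjusted p under 0.05. Type medians were 0.07 for H1, 0.02 for H2A, 0.01 for H2B, 0.01 for H3 and −0.04 for H4, against −0.05 over all genes. The median over the 35 genes with the higher mean level was 0.01, at 0.07 and −0.03 on the GSK126 arrays, against −0.05 over 16040 genes. It was 0.16 with quantile normalization and 0.09 with the detected-probe percentile, and the share of higher among all probes called ran from 67.6% to 83.2% with that percentile and 53.5% with normexp. The call is HIST3H2A, an H2A gene of the small HIST3 cluster. It read −3.68 and −3.51 in DMSO, −4.23 and −4.16 with GSK126, −4.37 and −4.16 with UNC0638, and −3.51 and −3.45 with the combination. Each agent alone gave lower readings (−0.60, adjusted p = 0.0302, with GSK126, and −0.67, adjusted p = 0.00829, with UNC0638), and the combination did not (0.12, adjusted p = 0.375, with a sign that turns under quantile normalization). The GSK126 count fell to 0 without either DMSO, either GSK126 or either combination array, and was 2 with the replicate number as a block.

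The combination was also set against each agent alone. These comparisons share the combination arrays, and those against DMSO share the DMSO arrays, so their values are side by side and not independent. Against GSK126, 58 of 64 genes in MM.1S were lower with the combination (22.1% of all genes) and 1 was higher (16.2%), HIST3H2A (0.72, adjusted p = 0.00485). Without the first GSK126 array 36 were called, and the share of higher among all probes called moved from 41.5% to 56.9% with the detected-probe percentile. Against UNC0638, 5 genes were lower (7.34% of all genes) and 1 was higher (6.69%), again HIST3H2A (0.79, adjusted p = 0.0156). The 5 are HIST1H2AG (−0.63), HIST1H2BH (−0.54), HIST1H4K (−0.50), HIST1H2BL (−0.49) and HIST1H2AH (−0.47), and those outside the rule for named genes are given because the count is small. That count of 6 was 0 without the second combination or the first UNC0638 array, 1 without the second UNC0638 array, 2 without either DMSO or either GSK126 array and 10 without the first combination array. It was 15 with normexp, 3 in a fit of all arrays, 2 under each of the other scalings and 0 with no filter or with the compared groups alone. The share of higher among all probes called moved from 46.2% to 73.0% with the detected-probe percentile.

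RPMI-8226 responded less in the test. With the combination, 1 of 60 genes tested was called higher, against 8.06% of all genes, and 1 lower, against 5.03%, with 17 at an unadjusted p under 0.05. With the replicate number as a block, which the arrays of this line support, 11 were called, 1 higher and 10 lower (1 H1, 3 H2A, 5 H3 and 1 H4), where the block called 11.7% of all genes higher and 9.88% lower. The medians were −0.55 for H1, −0.31 for H2A, −0.15 for H2B, −0.35 for H3 and −0.35 for H4, against −0.12 over all genes. Both treated arrays lay below both DMSO arrays at 34 genes and above at 6. The count of 2 was 0 without the first DMSO array or either array with the combination, 1 without any 1 of the others, 9 in a fit of all arrays, 8 with normexp, 5 with the mean over a gene's probes, 1 under each of the other scalings and 0 with no filter or with the compared groups alone. The share of higher among all probes called moved from 56.6% to 75% with the detected-probe percentile.

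Over the 35 histone genes with the higher mean level in RPMI-8226, the median was −0.35 with the combination, at −0.49 and −0.20 on its arrays where the DMSO arrays were at −0.07 and 0.07, against −0.12 over 16040 genes. With quantile normalization it was −0.09, against −0.08 over the 16040 genes, so the histone genes did not stand apart there. With the detected-probe percentile it was −0.21, against 0.01. GSK126 alone gave −0.28 (arrays −0.44 and −0.09), against −0.05 over all, and UNC0638 alone −0.10 (arrays −0.23 and 0.00), against −0.04. Quantile normalization gave −0.18 for GSK126, against −0.03, and −0.04 for UNC0638, against −0.01. With GSK126 both arrays are below both DMSO arrays and lie far apart, and with UNC0638 the second array lies between the DMSO arrays. Arrays of this line with the same replicate number deviated together, and the labels do not say what they share. Each array with a single agent is below the DMSO array of its number. For GSK126 these are −0.44 against −0.07 and −0.09 against 0.07. For UNC0638 they are −0.23 against −0.07 and 0.00 against 0.07. The medians were not tested in pairs. By limma, GSK126 was called at 0 of 60 genes, with 3 at an unadjusted p under 0.05, where 0.656% of all genes were higher and 0.0562% lower. UNC0638 was called at 0 of 60, with 1 unadjusted, where 0.649% of all genes were higher and 0.0749% lower.

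**Figure D4:**
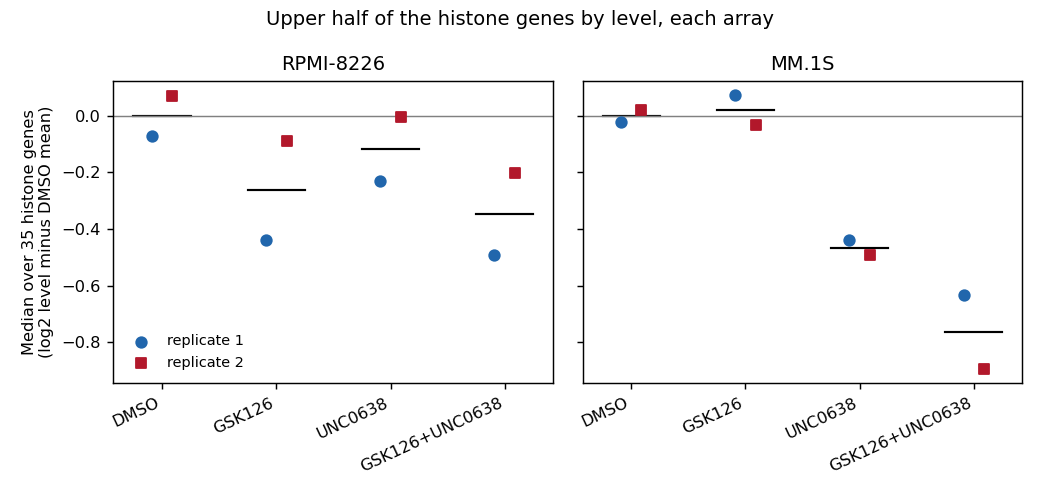
Median over 35 histone genes of the log2 level minus the DMSO mean of the line (vertical axis), 1 point for each array, by group and line. The arrays with the combination are at −0.63 and −0.89 in MM.1S and at −0.49 and −0.20 in RPMI-8226.

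Against each agent alone, the combination in RPMI-8226 gave 0 calls of 60 by limma, with 4 at an unadjusted p under 0.05 in each comparison. Against GSK126, 2.22% of all genes were higher and 0.556% lower, and against UNC0638, 3.11% and 0.587%. With the replicate block each comparison called 1 gene higher, HIST2H2AA4 (adjusted p = 0.0367 and 0.0445, against 0.0852 and 0.108 without the block), and in a fit of all arrays each called 2. Quantile normalization moved the share of higher among all probes called from 77.8% to 67.3% against GSK126 and from 80.1% to 68.4% against UNC0638.

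HIST2H2AA4, an H2A gene of HIST2 (chr1:149822628-149822687, plus strand), was the gene called higher in RPMI-8226. It read 0.70 and 0.91 in DMSO, 0.92 and 1.11 with GSK126, 1.00 and 1.19 with UNC0638, and 1.65 and 1.74 with the combination. The combination arrays stand above the other 6 arrays of the line (0.89, SE 0.15, adjusted p = 0.0169). The call was lost in 5 of 17 alternatives: without the first DMSO array or either array with the combination, with no filter and with the compared groups alone. The adjusted p ran from 0.00112 to 0.0794. In MM.1S the same probe read 0.65 and 0.82 in DMSO and 0.80 and 0.98 with the combination and was not called (0.15, SE 0.11, adjusted p = 0.275).

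HIST1H4H was called lower with the combination in both lines, comparisons that share no arrays, and was the sole gene so called among 60 tested in both in the fit without the replicate block. In that fit 32.0% of all genes were lower in MM.1S and 5.03% in RPMI-8226, where the block called 9.88% lower. No share of all genes lower in both lines is given, so the size of the overlap is not read as a result. With the block, 10 genes were called lower in RPMI-8226, each also called lower in MM.1S without it: HIST1H4H, HIST1H1E, HIST1H2AG, HIST1H2AI, HIST1H2AK, HIST1H3B, HIST1H3E, HIST1H3H, HIST1H3I and HIST1H3J. Its probe (chr6:26285497-26285556, minus strand) is printed here as the reading the result rests on.
HIST1H4H: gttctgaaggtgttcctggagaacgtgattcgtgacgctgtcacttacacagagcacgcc
In RPMI-8226 it read 4.17 and 4.38 in DMSO, 3.76 and 4.04 with GSK126, 3.89 and 4.27 with UNC0638, and 3.51 and 3.52 with the combination (−0.76, SE 0.18, adjusted p = 0.0443). In MM.1S it read 4.47 and 4.51, 4.47 and 4.40, 3.94 and 4.0, and 3.73 and 2.55 (−1.35, SE 0.35, adjusted p = 0.0183). The combination arrays are the lowest in each line, and in MM.1S they lie far apart. Without the second of them the MM.1S change was −0.77, and without the first −1.94. The MM.1S call was lost in 5 of 17 alternatives: without either DMSO array, with no filter, with the compared groups alone and with quantile normalization. The RPMI-8226 call was lost in 13 of 17: without any 1 of the 8 arrays of the line, in the fit of all 16 arrays, with no filter, with the compared groups alone, with the detected-probe percentile and with quantile normalization, where the adjusted p ran from 0.0165 to 0.180 over 17 alternatives. HIST1H4H shares runs of 20 to 26 bases with the probes of HIST1H4I, HIST1H4K and HIST2H4B, so its value is uncertain as that of 1 gene. Of the 60 genes tested in both lines, 49 were below 0 in both and 57 were further below 0 in MM.1S. Of the 16040 genes with the higher mean level in each line, 58.1% were below 0 in MM.1S and 61.5% in RPMI-8226. No share of all genes over both lines together is given, so these counts are a description.

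The difference between the lines was tested itself, as the RPMI-8226 response minus the MM.1S response in a fit of all 16 arrays. For the combination, 10 of 64 histone genes had a higher response in RPMI-8226 (7.82% of all genes), and 0 were lower (6.61% of all genes), with 25 at an unadjusted p under 0.05. The 10 are 8 H2B genes, HIST1H1A and HIST2H2AA4. Medians were 0.70 for H2B, 0.48 for H2A, 0.42 for H1, 0.36 for H4 and 0.30 for H3, against 0.06 over all genes. The 8 H2B genes were called lower in MM.1S and not called in RPMI-8226, while HIST2H2AA4 was called higher in RPMI-8226 and not called in MM.1S. The value of HIST1H1A (2.18) rests on RPMI-8226 readings that are all below background. Of the 10, 7 have a probe that shares a run of at least 20 bases or at least 80% identity with that of another of the 10, so they may not be 10 separate readings. The count was 18 with the replicate block (11% of all genes higher and 9.47% lower), 5 with no filter and 2 with the compared groups alone. Leaving out 1 array gave 4 and 3 without the first and second MM.1S DMSO arrays, 4 without the second MM.1S combination array, 5 without the first RPMI-8226 DMSO array, 6 and 5 without the first and second RPMI-8226 combination arrays, and up to 14 otherwise.

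The H2B genes with the smallest adjusted p for this difference show it on each array. HIST1H2BI read 3.54 and 3.71 in RPMI-8226 DMSO and 3.91 and 3.93 with the combination, and 3.18 and 3.26, then 2.73 and 2.44, in MM.1S (difference 0.92, SE 0.17, adjusted p = 0.00712). HIST1H2BK read 3.04 and 3.13, then 3.29 and 3.26, in RPMI-8226, and 2.51 and 2.61, then 2.0 and 1.83, in MM.1S (0.83, SE 0.16, adjusted p = 0.00790). HIST1H2BM read 3.59 and 3.68, then 3.71 and 3.85, and in MM.1S 3.25 and 3.19, then 2.54 and 2.38 (0.91, SE 0.20, adjusted p = 0.0158). At these 3 probes the treated arrays of RPMI-8226 are above DMSO, without a call, while those of MM.1S are below. HIST1H2BD read 2.57 and 2.81, then 2.88 and 2.82, and in MM.1S 2.06 and 2.15, then 1.57 and 1.26 (0.85, SE 0.19, adjusted p = 0.0155). HIST2H2BF read 4.18 and 4.29, then 4.28 and 4.42, and in MM.1S 3.6 and 3.70, then 3.17 and 2.92 (0.72, SE 0.17, adjusted p = 0.0214). In a fit of the compared groups alone the calls of HIST1H2BI, HIST1H2BK, HIST1H2BD and HIST2H2BF were lost. Single arrays decide some of these calls. That of HIST1H2BM was lost without the first MM.1S DMSO or the second MM.1S combination array, that of HIST1H2BD without the second MM.1S DMSO or second MM.1S combination array, and that of HIST2H2BF without either MM.1S DMSO, the second MM.1S combination or the second RPMI-8226 combination array, and also with no filter and with the mean over its probes.

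For the single agents the difference between the lines gave 0 calls of 64 by limma. With GSK126, 1 gene was at an unadjusted p under 0.05, and 0.429% of all genes were higher and 0.484% lower. With UNC0638, 12 were, and 1.16% and 2.05% of all genes were called, while normexp brought 1 histone gene past the threshold. So the 32 genes called with UNC0638 in MM.1S and the 0 in RPMI-8226 are not shown to differ by this test.

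A list of 12 members known to make polyadenylated transcripts was followed separately, of which 11 have a probe by that symbol. HIST2H2AA3 has none, and HIST2H2AA4 is counted outside the list. HIST2H2AA4 is the 1 higher outside it in RPMI-8226 and is among the 5 others called for the difference between the lines. Whether its probe also reads HIST2H2AA3 was not tested, so the counts inside and outside the list are read with that limit. In MM.1S with the combination, 10 of 11 were lower and 0 higher (median −0.73), beside 49 of 53 lower and 1 higher outside the list (median −0.78). Of all genes there, 32.0% were lower and 23.2% higher. In RPMI-8226, 1 of 11 was lower, HIST1H4H, and the median was 0.01, beside 0 of 49 lower and 1 higher outside it (median −0.34). Of all genes in this line, 5.03% were lower and 8.06% higher, and 1 of 11 is close to the former. For the difference between the lines, 5 of 11 list members and 5 of 53 others were called, with medians of 0.69 and 0.41. Of all genes, 7.82% had a higher response in RPMI-8226 and 6.61% a lower one. With the replicate block, 1 of 11 list members and 9 of 49 others were lower in RPMI-8226, beside 9.88% of all genes. The block called 7 of 11 list members and 11 of 53 others higher for the difference between the lines, beside 11% of all genes. It called 9.47% of all genes lower for that difference. Whether the list differs from the other histone genes was not tested. In MM.1S, HIST1H2BC read 1.69 and 1.80 in DMSO and 1.17 and 0.87 with the combination (−0.73, SE 0.14, adjusted p = 0.00587), HIST1H2BG 1.64 and 1.74, then 1.11 and 0.73 (−0.76, SE 0.15, adjusted p = 0.00733), and HIST1H2BJ 1.86 and 1.87, then 1.13 and 0.86 (−0.87, SE 0.13, adjusted p = 0.00217). In RPMI-8226 the same genes had log2 changes of −0.04, −0.01 and 0.01, none called, and scalings turn the sign of each. HIST2H2BE read −2.14 and −2.08, then −2.60 and −3.14, in MM.1S (−0.76, SE 0.21, adjusted p = 0.0242), a call lost without either DMSO array or the second array with the combination, in the fit of all 16 arrays, with no filter and with the detected-probe percentile.

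Some histone genes have a probe far from the chosen one, and its readings differ. They were singled out after their values were seen. The chosen probe of HIST1H2AC (chr6:26124461-26124520, plus strand) starts at the start codon, in capitals, and another lies 14361 bases towards the 3′ side (chr6:26138822-26138881), where the RefSeq gene spans 519 bases on GRCh38.p14. HIST1H2BK has a probe 8246 bases towards the 3′ side of the chosen one (chr6:27106191-27106250, minus strand), within a RefSeq span of 8566 bases. HIST2H2BE has one 1037 bases away (chr1:149857064-149857123, minus strand), within a span of 2224 bases. The median span of the 70 genes is 494.5 bases. The chosen HIST1H2AC probe and the first 30 bases of each distal probe are shown because the readings depend on which of them is used, and the first 30 bases lie at chr6:26138822-26138851, chr6:27106221-27106250 and chr1:149857094-149857123.
HIST1H2AC chosen: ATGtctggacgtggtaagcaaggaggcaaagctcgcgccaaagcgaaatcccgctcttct
HIST1H2AC distal: gcattatgcaaatgcattatattttatgta
HIST1H2BK distal: ggtccattccttctctctaataatcattta
HIST2H2BE distal: tctcattttgttgataatttctgcatttaa

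At the chosen probe, HIST1H2AC read 2.04 and 2.17 in MM.1S DMSO, 2.19 and 2.06 with GSK126, 1.36 and 1.45 with UNC0638, and 1.28 and 1.16 with the combination (−0.88, SE 0.10, adjusted p = 8.75e-04). At the distal probe it read −3.80 and −3.59, −2.82 and −2.16, −2.32 and −1.88, and −1.09 and −0.50 (2.90, adjusted p = 7.36e-04). The readings of the distal probe rise from DMSO to single agents to the combination with no overlap between the controls and any treated group. In RPMI-8226 the distal probe read −0.99 and −0.68 in DMSO, −0.25 and −0.15, −0.05 and −0.20, and 1.75 and 1.18 with the combination (2.30, adjusted p = 0.00214), while the chosen probe read 1.48 and 1.82, then 1.28 and 1.41 with the combination (−0.31, adjusted p = 0.322). A further probe of the gene, 58 bases before the chosen one, gave −0.42 in MM.1S and −0.18 in RPMI-8226, neither called. Averaging the probes of the gene turns the sign of its change, to 0.53 in MM.1S and 0.60 in RPMI-8226.

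HIST1H2BK showed a split in MM.1S as well. In MM.1S its distal probe read −0.11 and 0.16 in DMSO, 0.21 and 0.52 with GSK126, 0.93 and 1.24 with UNC0638, and 1.70 and 2.05 with the combination (1.85, adjusted p = 7.25e-04), where the chosen probe fell by 0.64 (adjusted p = 0.00305). In RPMI-8226 it read 3.78 and 3.59, 3.6 and 3.65, 3.96 and 4.15, and 4.68 and 4.51 (0.91, adjusted p = 0.0147), where the chosen probe gave 0.19 (adjusted p = 0.377). With the mean over both probes the MM.1S change is 0.61 and the difference between the lines −0.06. The distal probe alone was called lower for that difference (−0.95, SE 0.25, adjusted p = 0.0326), opposite to the chosen probe. The distal probe of HIST2H2BE was above background on 3 arrays, all of RPMI-8226: 1 with UNC0638 and both with the combination (−2.79 and −3.71). A probe of HIST2H2BF at chr1:149397120-149397179, 386524 bases from the chosen one, was above background on 3 arrays as well, both RPMI-8226 arrays with the combination (−3.73 and −3.55) and 1 of MM.1S. Both probes passed the filter through that 1 group alone, which favours a rise, so no test of them is given. Which transcripts the distal probes read was not tested.

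**Figure D5:**
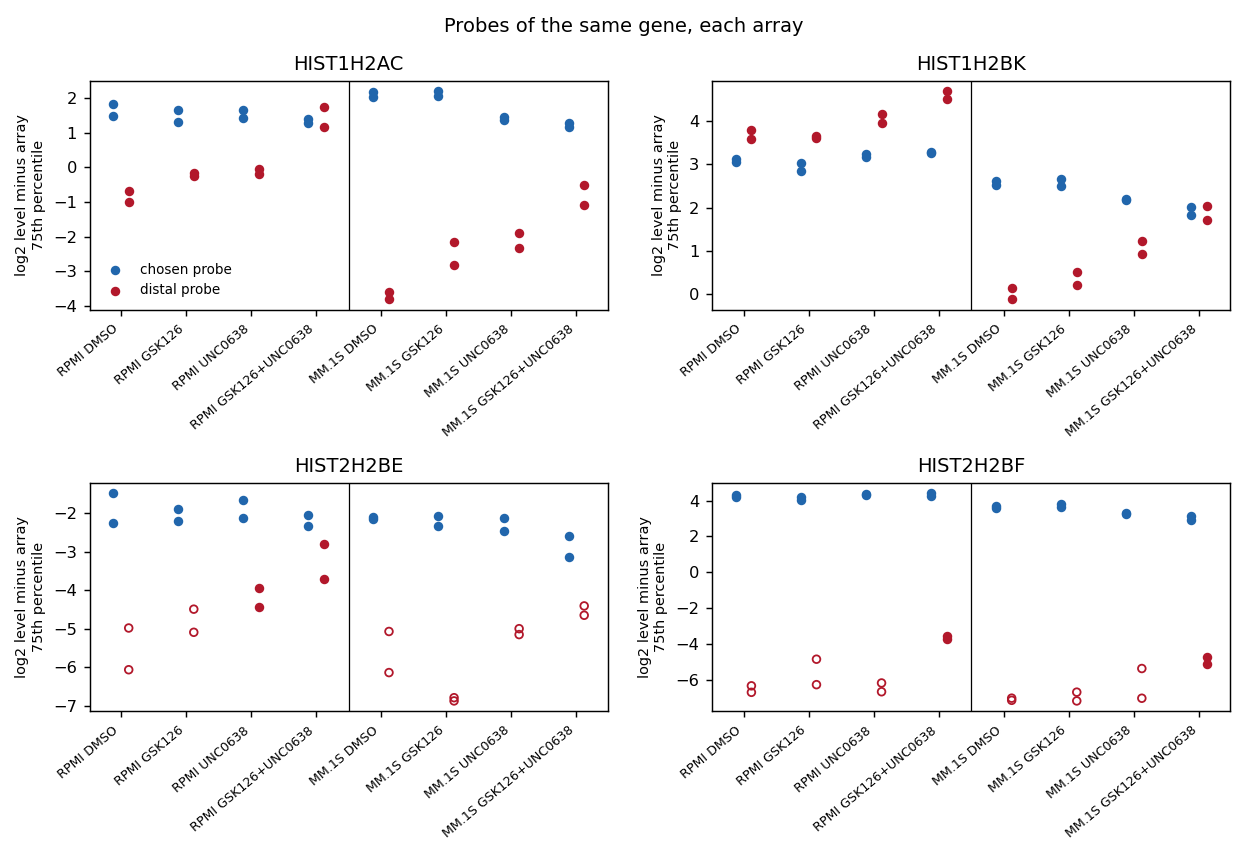
Log2 level on each array at the chosen probe and at a distal probe of HIST1H2AC, HIST1H2BK, HIST2H2BE and HIST2H2BF, by group and line (open symbols, groups where neither array was above background). For HIST1H2AC in MM.1S the chosen probe falls to 1.28 and 1.16 with the combination while the distal probe reaches −1.09 and −0.50.

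Of the 4 members known mainly from testis, HIST1H1T and HIST1H2BA were above background on no array. HIST1H2AA was above background on both MM.1S DMSO arrays (−4.11 and −3.40) and on neither array with the combination, a fall of at least 2.13-fold (adjusted p = 0.0235) that lost its call without the second DMSO or the second combination array and with no filter. HIST3H3 read 6.28 and 6.24 in MM.1S DMSO and 5.37 and 5.93 with the combination (−0.62, SE 0.18, adjusted p = 0.0270), lost without either DMSO array, with no filter, with the compared groups alone, with the detected-probe percentile and with quantile normalization. In RPMI-8226 it was the 1 tested of the 4, read 6.24 and 6.39, then 5.98 and 6.00, and was not called (−0.32, SE 0.13, adjusted p = 0.146). The HIST3H3 probe is at least 80% identical over the aligned stretch with the probes of HIST1H3C, HIST1H3J and HIST2H3D, so the reading is uncertain as that of this gene.

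The replication-independent variants, which are not in the set, moved in both directions in MM.1S. Of 12 genes on that list, 11 had a probe (H3F3C had none). In MM.1S with the combination, 5 of 9 tested were lower and 1 higher (median −0.35), where 32.0% of all genes were lower and 23.2% higher, and in RPMI-8226, 0 of 10 lower and 1 higher (median −0.10), where 5.03% and 8.06% were. A difference from the histone genes was not tested. H2AFZ, which encodes H2A.Z, read 6.90 and 6.87 in MM.1S DMSO and 6.19 and 6.01 with the combination (−0.79, SE 0.09, adjusted p = 9.06e-04), and H1FX, a linker histone variant, 2.98 and 2.99, then 2.58 and 2.25 (−0.57, SE 0.13, adjusted p = 0.0105). H2AFJ, an H2A variant gene, went the other way, from 3.5 and 3.59 to 4.40 and 4.33 (0.82, SE 0.09, adjusted p = 7.58e-04), with GSK126 at 3.72 and 3.85 and UNC0638 at 3.93 and 3.97. In RPMI-8226 it read 1.61 and 1.31, then 2.52 and 2.03, without a call (0.82, SE 0.25, adjusted p = 0.0809). In 3 of 17 alternatives it was called, the replicate block among them (adjusted p = 0.0113, in a range of 0.0113 to 0.340). H1F0, the linker histone known from cells that stop dividing, was above background on 8 of 8 RPMI-8226 arrays and 0 of 8 in MM.1S. It read 1.60 and 1.91 in RPMI-8226 DMSO and 2.57 and 2.64 with the combination (0.85, SE 0.16, adjusted p = 0.0229), a call lost without the first DMSO, either UNC0638 or either combination array, with no filter and with the compared groups alone.

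Genes for transcribing and processing histone messages fell in part. Of 17 on the list, 11 of 17 tested in MM.1S were lower and 0 higher (median −0.49), and 1 of 15 in RPMI-8226 was lower, CPSF3, and 0 higher (median −0.32). Of all genes, 32.0% were lower in MM.1S and 5.03% in RPMI-8226, and 1 of 15 is close to the latter. E2F1, a transcription factor of the G1/S transition, read 2.37 and 2.35 in MM.1S DMSO, 2.13 and 2.16 with GSK126, 2.0 and 1.91 with UNC0638, and 1.4 and 1.24 with the combination (−1.04, SE 0.09, adjusted p = 4.19e-04). CCNE1, whose cyclin E drives histone transcription with CDK2, read 4.41 and 4.10, then 3.53 and 3.31 with the combination (−0.84, SE 0.15, adjusted p = 0.00525). Both held in all 17 alternatives. CCNE2 (−1.0, SE 0.33, adjusted p = 0.0430) lost its call without any 1 array of the DMSO, UNC0638 and combination groups, with no filter and with the detected-probe percentile. CSTF2, which belongs to the complex that cleaves histone messages, changed from 2.05 and 1.77 to 1.41 and 0.95 (−0.72, SE 0.17, adjusted p = 0.0148) and lost its call without the first DMSO or second combination array.

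Of 21 histone chaperones, which carry histones to and from DNA, 17 were lower and 0 higher in MM.1S with the combination (median −0.67), and 1 was lower and 0 higher in RPMI-8226 (median −0.30), against 32.0% and 5.03% of all genes lower. IPO4, which imports H3 and H4 into the nucleus, read 1.05 and 0.96 in MM.1S DMSO, 0.63 and 0.60 with GSK126, 0.36 and 0.15 with UNC0638, and −0.45 and −0.63 with the combination (−1.54, SE 0.11, adjusted p = 2.86e-04). ASF1A, a chaperone of H3 and H4, read −0.88 and −0.94, then −2.06 and −2.34 with the combination (−1.29, SE 0.18, adjusted p = 0.00198), and ANP32E, a chaperone of H2A.Z, 3.62 and 3.45, then 2.56 and 2.56 (−0.98, SE 0.09, adjusted p = 4.85e-04). CHAF1A, of the complex that deposits histones behind the replication fork, read 5.20 and 5.15, then 4.37 and 4.05, in MM.1S (−0.96, SE 0.12, adjusted p = 0.00128), and 5.06 and 4.84, then 4.39 and 4.35, in RPMI-8226 (−0.58, SE 0.14, adjusted p = 0.0411). The RPMI-8226 call was lost without any 1 of its 8 arrays, with no filter, the compared groups alone, the detected-probe percentile and quantile normalization, while the MM.1S calls of all 4 genes held in all 17 alternatives.

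Genes of DNA synthesis, with which histone production is coupled, fell throughout in MM.1S. Of 16, 16 were lower with the combination (median −1.02) and 9 with UNC0638 (median −0.44), 1 was lower with GSK126 (median −0.17), and none of the 3 treatments had one higher. In RPMI-8226, 2 of 16 were lower with the combination, MCM4 and CDT1, and 0 higher (median −0.38, with 16 of 16 below 0). MCM7 gained a call in that line in 5 of 17 alternatives. The shares of all genes called lower were 32.0% with the combination, 16.7% with UNC0638 and 2.37% with GSK126 in MM.1S, and 5.03% with the combination in RPMI-8226. MCM7, of the replicative helicase, read 7.38 and 7.39 in MM.1S DMSO, 7.35 and 7.28 with GSK126, 7.03 and 6.84 with UNC0638, and 6.18 and 6.15 with the combination (−1.22, SE 0.09, adjusted p = 3.36e-04). RRM2, of ribonucleotide reductase, read 4.49 and 4.10, then 3.34 and 2.87 with the combination (−1.19, SE 0.22, adjusted p = 0.00515). MCM4 read 3.65 and 3.61, then 2.64 and 2.24, in MM.1S (−1.18, SE 0.15, adjusted p = 0.00132) and 4.41 and 3.90, then 3.30 and 3.38, in RPMI-8226 (−0.81, SE 0.19, adjusted p = 0.0389). CDT1, which loads that helicase, read 3.5 and 3.51, then 2.53 and 2.15, in MM.1S (−1.17, SE 0.15, adjusted p = 0.00140) and 4.07 and 3.92, then 3.33 and 3.44, in RPMI-8226 (−0.61, SE 0.14, adjusted p = 0.0412). In RPMI-8226 the call of MCM4 was lost without the first DMSO array or any treated array, and that of CDT1 without either DMSO, either UNC0638 or either combination array. Both were also lost with no filter, the compared groups alone, the detected-probe percentile and quantile normalization. The part of DNA synthesis genes in the fall of histone genes was not tested.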

How the data were processed

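The deposited scanner files hold 62976 spots an array, made with Agilent Feature Extraction 10.7 from Cy3-labelled total RNA on SurePrint G3 human arrays. Per the file headers, the processed signal is an intensity, background-subtracted and spatially detrended, with no scaling between arrays. The authors' value table repeats these signals in rounded form and was not used. Control spots (4259 an array) and outlier spots (220 to 358) were removed, none of the latter from histone probes, spots of a probe were averaged, and log2 signals were scaled to the 75th percentile of each array. Spots well above background made up 46.5% to 52.8% of an array (median 49.8%), and the number of arrays limits the precision. limma 3.58.1 in R 4.3.3 (lmFit, eBayes) was fitted to the 8 arrays of a line, or to all 16 for line differences, over probes that were well above background in each array of 1 or more groups, with Benjamini-Hochberg adjustment over all probes kept and a threshold of 0.05. Background shares count 1 probe a gene symbol. The scripts were tested on simulated data. The members and lists were chosen with earlier results of these data known.

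Named genes are the 2 probes with the highest mean in each type, up to 6 largest rises and falls with the combination in each line among genes called with both treated arrays beyond both DMSO arrays, genes called in both lines, up to 5 with the smallest adjusted p for a line difference, the polyadenylated and testis lists, and up to 4 genes of each other list. Alternatives were quantile normalization, the percentile over probes detected on all arrays, normexp background correction with an offset of 50, no filter, a filter on all arrays, the mean over a gene's probes, the compared groups alone, 1 fit of all arrays, the replicate number as a block, and leaving out each array. The block was checked by the correlation of same-numbered arrays' deviations from their group means. In RPMI-8226, r was 0.254 to 0.415 (over 0.1 in 6 of 6 pairs of groups), so its same-numbered arrays deviated together. In MM.1S it was 0.0847 to 0.225 (5 of 6 over 0.1), so not every pair did. The labels do not say what same-numbered arrays share. Over the histone genes, replicates correlated at r of 0.994 to 0.999 across genes, which are not independent replicates. RefSeq (GRCh38.p14) gave gene spans and promoters, and all 70 genes matched 1 RefSeq gene. The results of 1 list of marker genes are not reported.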

Additional observations from a re-analysis of the deposited data

Results flagged for a closer look

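The response to the combination differed between the lines, by limma's test of the difference, at 10 histone genes, each with a higher value in RPMI-8226 than in MM.1S. For 1 of them, HIST1H1A, no RPMI-8226 array was above background, so no response was measured there. Of the genes named by rule, the log2 differences were 0.92 for HIST1H2BI, 0.83 for HIST1H2BK, 0.85 for HIST1H2BD, 0.91 for HIST1H2BM and 0.72 for HIST2H2BF. They were singled out because the 2 lines were given the same treatment and the difference passed the threshold. Their probes are alike in sequence, and for HIST1H2BK the mean over its probes gives −0.06.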

How the results depend on the processing

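With 2 arrays a group, counts of calls depend on single arrays and on the scaling. In MM.1S, the medians with UNC0638 and the combination were below 0 under each scaling, with the mean over probes and with 1 array left out. The other alternatives were not used for medians. Leaving out 1 array, where the lone array of a group is assumed to vary like the others, gave these ranges of histone genes called. In MM.1S they were 0 to 1 for GSK126, 3 to 46 for UNC0638, 43 to 60 for the combination, 36 to 56 for it against GSK126 and 0 to 10 against UNC0638. In RPMI-8226 they were 0 to 0 for each single agent and for the combination against either agent, and 0 to 1 for the combination. They were 0 to 0 for the line difference with GSK126 and with UNC0638, 3 to 14 with the combination and 13 to 21 between DMSO groups. Medians ran from −0.44 to −0.0892, −0.23 to 0.00 and −0.49 to −0.20 in RPMI-8226 for GSK126, UNC0638 and the combination, and from −0.0339 (a reversed sign, without the first GSK126 array) to 0.0745, −0.49 to −0.44 and −0.89 to −0.63 in MM.1S.

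For the combination in RPMI-8226 (2 calls) the count was 9 in 1 fit of all arrays, 5 with the mean over probes, 8 with normexp, 1 with the detected-probe percentile, 1 with quantile normalization, 11 with the replicate block, and 0 with no filter (12 at an unadjusted p under 0.05 by limma) or the compared groups alone (11 unadjusted). Against each agent it was 2 in the fit of all arrays and 1 with the block. For GSK126 in MM.1S (1 call) it was 2 with the block and 0 in the fit of all arrays (1 unadjusted) and with no filter, normexp or the compared groups alone (2 unadjusted each) or quantile normalization (8). For UNC0638 in MM.1S (32) it was 18, 7 and 10 in the fit of all arrays, with no filter and with quantile normalization, which gave 36 for the combination (60). Against UNC0638 (6) the combination had 3, 15, 2 and 2 in the fit of all arrays, with normexp, the detected-probe percentile and quantile normalization, and 0 with no filter (16 unadjusted) or the compared groups alone (10). The line difference had 1 call for UNC0638 with normexp, and for the combination (10) 5 with no filter, 2 with the compared groups alone and 18 with the block. The DMSO groups alone gave 12 (21). The block lies within a line, so it has no value for that comparison, and it moved no other count beyond 1.5 times.

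In RPMI-8226, quantile normalization gave medians of −0.18, −0.0366 and −0.0884 for GSK126, UNC0638 and the combination. The detected-probe percentile gave −0.21 for the combination there. In MM.1S, quantile normalization gave 0.16, −0.24 and −0.40 for the same treatments, and the detected-probe percentile 0.0941, −0.37 and −0.55. The mean over probes reversed HIST1H2AC (0.60 in RPMI-8226, 0.53 in MM.1S) and HIST1H2BK (0.61 in MM.1S, −0.0574 for the line difference), whose distal probes enter that mean. It also moved HIST2H2BF from 0.11 to 0.96 and HIST2H2BE from −0.33 to 0.97 in RPMI-8226. The distal probes in these means were kept through the combination group alone, which favours a rise, so no test of them is given. The count with the mean over probes in RPMI-8226 includes HIST2H2BF and is read with that limit. The cause of the other changes was not tested. Signal over background limits HIST1H1A, HIST1H2AA and HIST1H2BE, which are not above background in some groups.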
